A study of Mus musculus with 10 samples.

Results

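The insulin-like growth factor binding proteins were followed as a family of 6 genes, Igfbp2, Igfbp3, Igfbp4, Igfbp5, Igfbp6 and Igfbp7, across the cell populations of the mouse sweat gland. A gene belonged if a probe set of the array carried its symbol alone, and the 6 were selected on measured values of these arrays, their signals in the 5 populations. Their levels are therefore given as a description, with no test. The family makes up 6 of the 12393 genes with such a probe set, and 14 of all 22690 probe sets. RNA came from FACS-purified cells of paw pads of wild-type female mice on the CD1 background. The 5 populations were myoepithelial and luminal cells of the gland, basal and suprabasal cells of the straight duct, and palmoplantar epidermis. Each was measured on 2 arrays that the labels call biological replicates. The age of the mice, the number of animals behind an array and the surface markers of the sort are not given in the sources used here, so the spread between arrays may be partly technical.

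Insulin-like growth factors are small secreted proteins that act on cells through the type 1 IGF receptor. Binding proteins hold them in the fluid around cells, where they can lengthen their life, keep them from the receptor or release them once a protease has cut the binding protein. In skin the family is secreted by keratinocytes, fibroblasts and vessel cells, and several members also bind the matrix or the cell surface.

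The sorted populations were first set against markers of the cells they could hold. Values are MAS5 signals on a linear scale, in which the authors' processing sets the trimmed mean of every array to 500. The summed signal of 6 contractile genes such as Acta2 and Myh11 was 136031 and 201280 on the myoepithelial arrays, and between 202 and 3740 on the 8 others. Simple epithelial and secretory markers, 6 genes including Krt8 and Aqp5, summed to 40679 and 46407 in myoepithelial cells, against 84765 and 112712 in luminal cells. The myoepithelial sums were mostly Slc12a2 (23444 and 38537). Krt18, Krt19 and Aqp5 had 3744, 2427 and 3693 on the first myoepithelial array, against 444.1, 255.2 and 786.0 on the second. Of the 6 markers 1 was brighter on the second. The part of luminal RNA in the myoepithelial levels was not tested. Basal keratinocyte markers, 6 genes including Krt5 and Krt14, were highest in duct basal cells at 81437 and 84141, against 25548 and 35743 in duct suprabasal cells. Epidermal differentiation markers, of which 5 of 6 were on the array, summed to 105720 and 103442 in epidermis. They summed to 22715 and 43374 in duct basal cells, against 20840 and 24549 in duct suprabasal cells. The simple epithelial and secretory markers summed to 64512 and 43311 in duct suprabasal cells. Each list was thus highest in the population it marks, but was not confined to it, and none of these lists was highest in duct suprabasal cells. Their second array stood apart: across the 9310 genes tested, the correlation between the arrays of this population was 0.907, against 0.963 to 0.981 in the other 4. Between its arrays 1867 genes (20.1%) differed by more than 2-fold, against 505 to 827 in the others.

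The binding protein genes lie at 5 places in the genome. Igfbp2 and Igfbp5 are adjacent coding genes on chromosome 1, Igfbp3 is adjacent to Igfbp1 on chromosome 11, and Igfbp4, Igfbp6 and Igfbp7 stand alone on chromosomes 11, 15 and 5. The 150 bases before the RefSeq start (assembly GRCm38.p6) are shown for the neighbours Igfbp2 and Igfbp5, whose levels ran in different orders, and for Igfbp4 and Igfbp6, whose levels were most alike. Each is written 5′ to 3′ on the gene's strand, and capitals mark matches to TATAAA (the TATA box), GGGCGG (a GC box), CCAAT (the CCAAT box) or TGANTCA (the letters AP-1 can bind), searched on both strands in the 250 bases before the start, with no overlap between the motifs found. The windows are chr1:72824330-72824479 on the plus strand for Igfbp2 (its first of 2 starts), chr1:72874866-72875015 on the minus strand for Igfbp5, chr11:99041094-99041243 on the plus strand for Igfbp4 and chr15:102144036-102144185 on the plus strand for Igfbp6.
Igfbp2: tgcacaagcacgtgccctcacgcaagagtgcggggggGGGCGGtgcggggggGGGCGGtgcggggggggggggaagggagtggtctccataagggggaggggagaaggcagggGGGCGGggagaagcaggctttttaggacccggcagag
Igfbp5: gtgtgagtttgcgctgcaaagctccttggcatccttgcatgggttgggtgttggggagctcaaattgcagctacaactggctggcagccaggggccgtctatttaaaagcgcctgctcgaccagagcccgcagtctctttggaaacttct
Igfbp4: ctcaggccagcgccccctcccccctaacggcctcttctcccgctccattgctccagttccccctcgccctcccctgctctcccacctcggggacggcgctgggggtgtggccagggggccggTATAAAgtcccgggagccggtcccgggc
Igfbp6: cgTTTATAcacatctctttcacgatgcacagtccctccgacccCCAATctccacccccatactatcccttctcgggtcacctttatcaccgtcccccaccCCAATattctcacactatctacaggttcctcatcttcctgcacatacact

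Igfbp2 held 3 copies of GGGCGG, and Igfbp7, not printed, held 4. A copy of this motif is present in 32.7% of the 32851 promoter windows of the same length. TATAAA, present in 12.4% of all windows, began 28 bases before the start of Igfbp4. In Igfbp6 the match lay 148 bases before the start and on the opposite strand, where it reads TTTATA as printed. Igfbp6 also held 2 copies of CCAAT, a motif in 33.8% of windows. The second start of Igfbp2 had 1 match to TGANTCA, present in 6.7% of windows, and the windows of Igfbp3 and Igfbp5 held none of the 4. The 250 bases were 49.6% G or C before Igfbp6, 58.8% before Igfbp5, and between 67.2% and 74.0% before Igfbp3, Igfbp4, Igfbp7 and the first start of Igfbp2, against a median of 52.4% over all windows. The most alike pair of genes by level over the 10 arrays thus differed in base composition. Each had a TATAAA match, at different distances and on different strands.

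Igfbp2, which binds both growth factors and also carries a motif for integrins, had the widest range in the family. Its signal was 7701 and 14311 in myoepithelial cells, 21.7 and 53.4 in luminal cells, 1287 and 2646 in duct basal cells, 78.8 and 267.8 in duct suprabasal cells and 18520 and 22877 in epidermis. Both outer layers were above their inner layer, epidermis was above all 4 sweat populations, and no 2 populations overlapped. On the log2 scale, after 12 was added to each signal, the difference between myoepithelial and luminal cells was 7.81 (standard error, SE, 0.57), that between duct basal and duct suprabasal cells was 3.54, and that between duct basal cells and epidermis was -3.47. The luminal signals stood at the 29.9th and 42.1st percentiles of their arrays. With 47 added instead of 12, the difference between myoepithelial and luminal cells was 6.99. In sorted bulk samples such as these, fewer cells of a type and less RNA per cell cannot be told apart.

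Igfbp5, which binds matrix and is a known substrate of the protease pappalysin, was also high in myoepithelial cells. It had 2872 and 4162 in myoepithelial cells, 58.7 and 165.2 in luminal cells, 1479 and 1632 in duct basal cells, 518.7 and 3749 in duct suprabasal cells and 132.0 and 274.3 in epidermis. Myoepithelial cells stood above duct basal cells, while the 2 duct suprabasal arrays lay on either side of duct basal cells and the second of them fell within the myoepithelial values. Luminal cells and epidermis overlapped at the low end. The log2 difference between myoepithelial and luminal cells was 4.95 (SE 0.79), and that between duct basal cells and epidermis was 2.95. Igfbp2 and Igfbp5, neighbours on the chromosome, thus had opposite places in epidermis, where Igfbp2 was at its highest and Igfbp5 was near its lowest.

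Igfbp4, which mainly restrains IGF action and is also cut by pappalysin, had 2419 and 2976 in myoepithelial cells, 113.9 and 338.2 in luminal cells, 529.7 and 515.1 in duct basal cells, 1336 and 8754 in duct suprabasal cells and 390.6 and 376.2 in epidermis. The myoepithelial arrays lay between the 2 duct suprabasal arrays, and luminal cells were lowest. Duct basal cells were above epidermis by 0.43 on the log2 scale (SE 0.74), which is less than the SE. That SE pools the spread within all 5 populations. The gap between arrays was -0.04 in duct basal cells and -0.05 in epidermis, and these populations did not overlap. The log2 difference was 3.68 between myoepithelial and luminal cells and -4.03 between luminal and duct suprabasal cells. Igfbp4 was measured by 6 probe sets, and 4 of the 5 others followed the brightest with correlations of 0.93 to 0.99 over the 10 arrays. The remaining one (r = 0.76) stayed at or below the 42.3rd percentile of its array. The profile of Igfbp4 over the arrays was thus shared by 5 of its 6 probe sets, all of which read the same RNA.

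Igfbp3, the main carrier of IGFs in blood, had 604.2 and 943.8 in myoepithelial cells, 28.8 and 66.2 in luminal cells, 287.3 and 224.3 in duct basal cells, 810.9 and 1689 in duct suprabasal cells and 252.1 and 1215 in epidermis. Luminal cells alone were clear of every other population. The epidermis arrays differed by 2.22 on the log2 scale and spanned most of the other values. The difference between duct basal cells and epidermis, -1.10 (SE 0.66), was -2.21 without the first epidermis array and 0.01 without the second.

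Igfbp6, which prefers IGF2 over IGF1, had 614.4 and 699.5 in myoepithelial cells, 46.2 and 111.5 in luminal cells, 112.9 and 216.9 in duct basal cells, 247.2 and 3546 in duct suprabasal cells and 203.2 and 368.3 in epidermis. The duct suprabasal arrays lay on either side of the myoepithelial ones, and the lower duct basal array was barely above the higher luminal array. The log2 difference between myoepithelial and luminal cells was 2.98 and that between duct basal and duct suprabasal cells was -2.51. The SE of 0.98 was the largest in the family.

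Igfbp7, a secreted protein with low affinity for IGFs that is abundant in vessel walls, had a different order. Its signal was 1196 and 1181 in myoepithelial cells, 254.6 and 829.9 in luminal cells, 2124 and 1985 in duct basal cells, 5230 and 27651 in duct suprabasal cells and 624.8 and 1096 in epidermis. Duct suprabasal cells were highest, duct basal cells came next and myoepithelial cells were below both, the reverse of Igfbp2. The log2 difference was 1.34 (SE 0.72) between myoepithelial and luminal cells, -2.54 between duct basal and duct suprabasal cells and -4.67 between luminal and duct suprabasal cells. A second probe set followed the first (r = 0.92), while the third stayed at or below the 25.9th percentile on every array and did not follow it (r = -0.60). The dimmer probe set of Igfbp5 likewise stayed at or below the 41.4th percentile (r = 0.35).

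**Figure D1:**
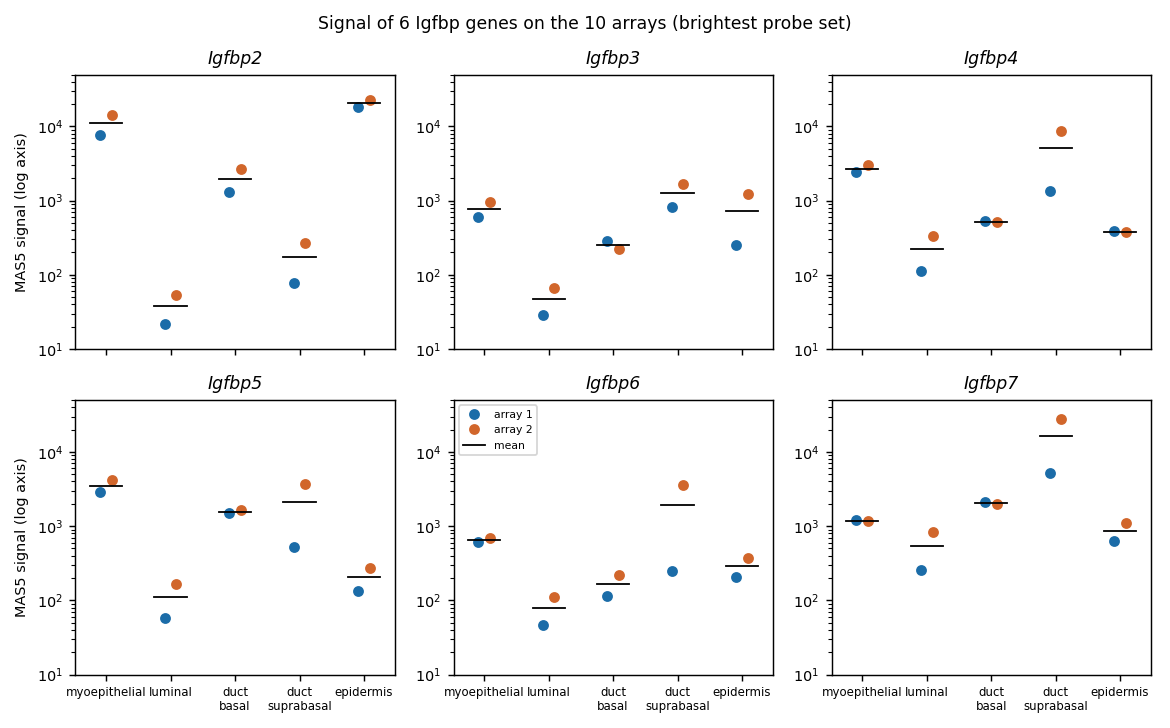
MAS5 signal of the brightest probe set of each of the 6 binding protein genes (log axis) in the 5 populations, with 1 point per array and a bar at the mean. Luminal cells held the lowest mean in every panel, and Igfbp2 alone was highest in epidermis, at 18520 and 22877.

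**Figure D2:**
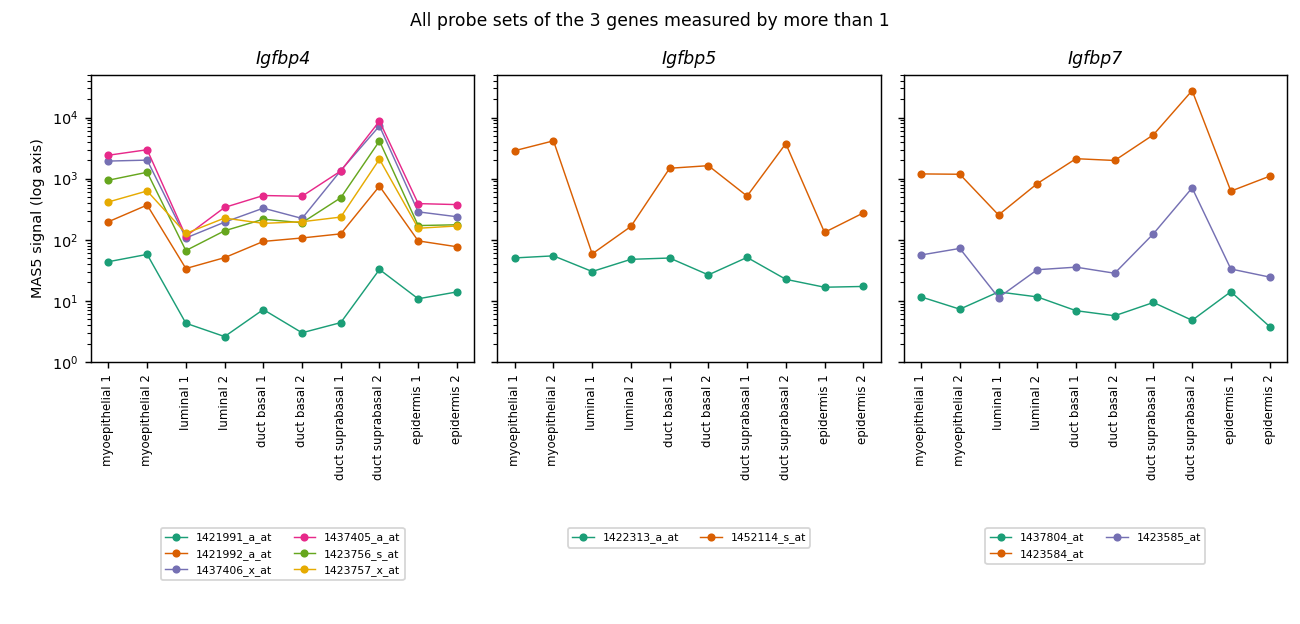
MAS5 signal (log axis) on each of the 10 arrays of every probe set of Igfbp4, Igfbp5 and Igfbp7, 1 line per probe set. Of the 6 probe sets of Igfbp4, 5 ran together, while the dimmest of Igfbp5 and of Igfbp7 did not follow the brightest (r = 0.35 and -0.60).

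Igfbp1, which is made mainly by liver, is on the array but is no member of the group. Its signal was between 0.5 and 25.6 on the 10 arrays, too low to be tested. The filter on dim genes asked for a signal above the 40th percentile on 2 or more of the 10 arrays, and all 6 members passed it and were among the 9310 genes tested.

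Set side by side, the members were all higher in myoepithelial than in luminal cells. By the description used here, both arrays of one population above both of the other and at least 2-fold between the means of log2 values, 6 of 6 were higher, where 15.3% of all genes tested were higher and 12.8% lower. The median log2 difference was 3.72 over the members and 0.08 over all genes. Since the members were chosen with these values known, nothing is read from the gap between the family and the background in this comparison or the next 4. Immune markers summed to 4358 and 6477 in myoepithelial cells, against 208 and 756 in luminal cells, and 7 of 7 had both arrays higher. Pericyte markers summed to 1154 and 1144 in myoepithelial cells, against 160 and 372 in luminal cells, and 3 of 4 had both arrays higher. Fibroblast markers did not move as a list. Of 8, 2 had both arrays higher and 5 both arrays lower in myoepithelial cells, and their sums, 12955 and 16371 against 2180 and 6319, were mostly Dcn, a matrix proteoglycan (11955 and 15303 in myoepithelial cells, against 490.3 and 1940 in luminal cells). No marker of these lists was at 0 on any array, and the part of these cells in the difference was not tested.

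In the duct the layers were ordered differently. Igfbp2 was higher in duct basal than in duct suprabasal cells (1 of 6, with 7.38% of all genes), and Igfbp3, Igfbp4, Igfbp6 and Igfbp7 were lower (4 of 6, with 12.4% of all genes). Igfbp5 overlapped, with a log2 difference of 0.15. The median was -2.33 over the members and -0.02 over all genes. Endothelial markers were lower on both duct basal arrays in 8 of 8 cases and fibroblast markers in 5 of 8. Fibroblast sums were 24197 and 20358 in duct basal cells, against 16694 and 90222 in duct suprabasal cells. Those of duct basal cells were mostly Dcn (22039 and 18361, against 6094 and 33120 in duct suprabasal cells). The part of endothelial cells and fibroblasts was not tested. Between luminal and duct suprabasal cells all 6 members were lower, where 13.7% of all genes were lower and 5.66% higher, with medians of -3.85 and -0.06. Differences here ran from -1.76 for Igfbp2 to -4.67 for Igfbp7. In this pair 8 of 8 fibroblast and 8 of 8 endothelial markers were lower on both luminal arrays. So were 1 of 4 pericyte and 2 of 7 immune markers, with 0 higher on both, and the part of these cells was not tested.

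Between the outer layers, 5 of 6 members were higher in myoepithelial than in duct basal cells, all but Igfbp7, against 12.8% of all genes higher and 11.5% lower. The largest were Igfbp2 at 2.50 and Igfbp4 at 2.33 on the log2 scale, and Igfbp7 had -0.78, or 0.08 with the mean of its probe sets. The medians were 1.76 over the members and 0.02 over all genes. In this pair 7 of 7 immune markers had both myoepithelial arrays higher and 8 of 8 fibroblast markers had both lower. The part of these cells was not tested. Between duct basal cells and epidermis, Igfbp5 and Igfbp7 (1.30) were higher, with 23.2% of all genes, and Igfbp2 was lower, with 8.37% of all genes. The median was -0.16 over the members and 0.24 over all genes. Here 8 of 8 fibroblast, 8 of 8 endothelial, 4 of 4 pericyte and 3 of 7 immune markers had both duct basal arrays higher. Their part was not tested. Across all 5 populations the range of a member's means had a median of 4.53 log2 units, against 1.47 over all genes. The spread within a population was also wider, with a median residual SD of 0.97 log2 units against 0.31.

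**Figure D3:**
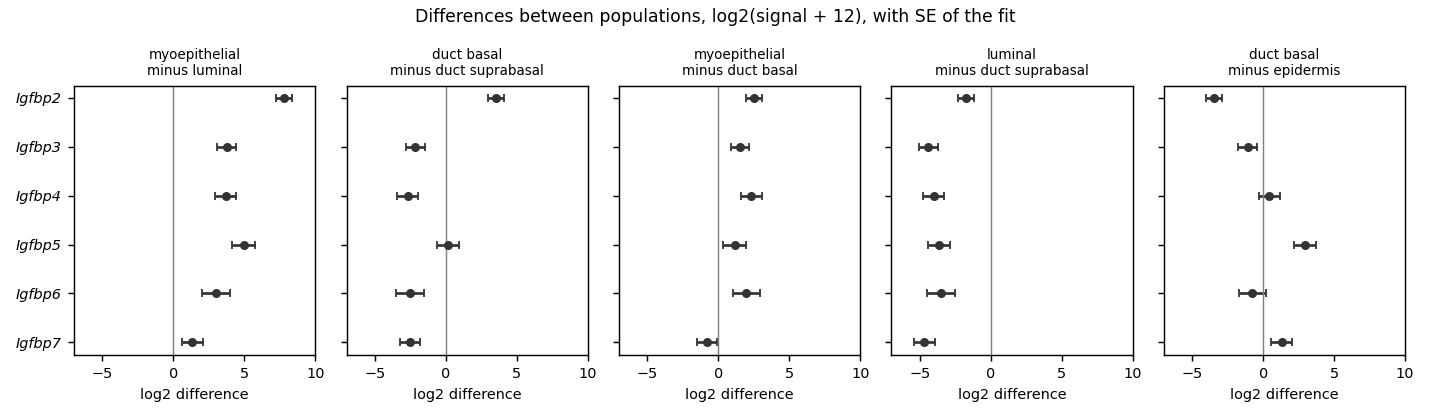
Log2 difference of each of the 6 binding protein genes in the 5 comparisons, with the first-named population minus the second and bars of 1 SE. All points of myoepithelial against luminal cells lie above 0, from 1.34 to 7.81, and all points of luminal against duct suprabasal cells lie below 0, from -1.76 to -4.67.

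Duct suprabasal cells had the widest gap between replicate arrays for 5 members, all but Igfbp3. The second duct suprabasal array exceeded the first for all 6 members, by 1.62 (Igfbp2), 1.05 (Igfbp3), 2.70 (Igfbp4), 2.83 (Igfbp5), 3.78 (Igfbp6) and 2.40 (Igfbp7) log2 units, while the median over all genes was -0.02. On the same array 8 of 8 fibroblast markers were brighter (median 2.50) and summed to 16694 on the first and 90222 on the second. Of the endothelial markers 8 of 8 were brighter (median 2.36), with sums of 3004 and 17266, and so were 4 of 4 pericyte markers (median 2.45) and 7 of 7 immune markers (median 1.33), while 0 of 6 luminal markers were (median -1.05). Also brighter on this array were 2 of 2 adipocyte markers (median 2.43) and 5 of 6 basal keratinocyte markers (median 0.74). So were 5 of 6 contractile markers (0.33) and 3 of 5 epidermal differentiation markers (0.14). Endothelial markers summed to between 77 and 687 on the 8 arrays of the other populations. No marker of these lists was at 0, and their part in the family's levels was not tested. On the second luminal array all 6 members were also brighter, by 0.94 to 1.66, as were 8 of 8 fibroblast markers (median 1.32), 7 of 7 immune markers (1.44), 6 of 6 contractile markers (0.79), 5 of 6 basal keratinocyte markers (0.80) and 6 of 6 luminal markers (0.44). Luminal markers thus lay on the other side of 0 from those of the duct suprabasal arrays. In myoepithelial cells no member differed by more than 2-fold between arrays.

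**Figure D4:**
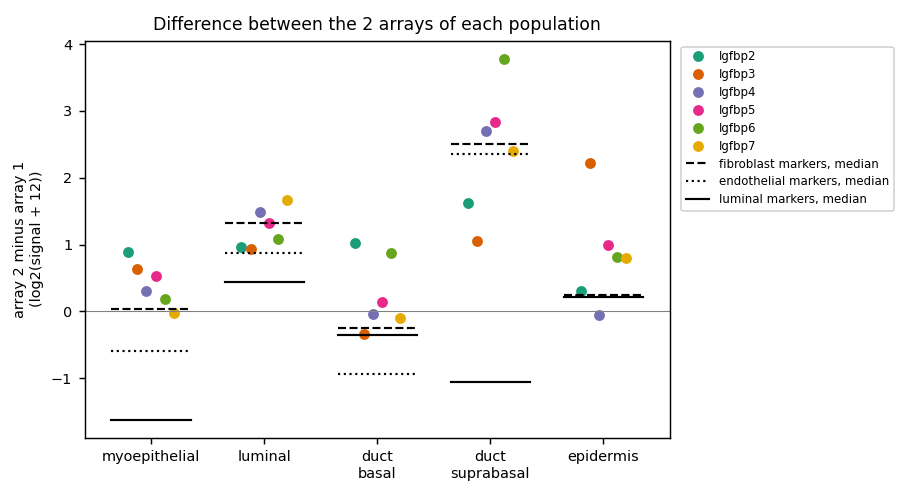
Array 2 minus array 1 of each population on the log2 scale, with 1 point for each of the 6 binding protein genes and lines at the medians of the fibroblast, endothelial and luminal markers. In duct suprabasal cells all 6 members lie above 0 (1.05 to 3.78), as do the fibroblast (2.50) and endothelial (2.36) medians, while the luminal median lies at -1.05.

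Without the second duct suprabasal array, the difference of duct basal from duct suprabasal cells was -1.63 for Igfbp3, -1.34 for Igfbp4, 1.56 for Igfbp5, -0.62 for Igfbp6 and -1.34 for Igfbp7, and 4.35 for Igfbp2. Without the first array in its place, it was -2.68, -4.04, -1.26, -4.40 and -3.74 for Igfbp3 to Igfbp7 and 2.73 for Igfbp2. The sign of 5 members was the same either way, and Igfbp5 lay above 0 in one case and below 0 in the other. The difference of luminal from duct suprabasal cells without the second array was -0.95 for Igfbp2, -3.86 for Igfbp3, -2.68 for Igfbp4, -2.25 for Igfbp5, -1.61 for Igfbp6 and -3.47 for Igfbp7. It was below 0 for all 6 either way.

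With all 10 arrays the members fell into a group of like profiles and 1, Igfbp2, that stood apart. This grouping did not hold without the second duct suprabasal array. Over the 10 arrays, which share populations and so are not independent, Igfbp4 and Igfbp6 had the highest correlation of log2 signals (r = 0.92), followed by Igfbp3 with Igfbp6 (0.84) and Igfbp4 with Igfbp5 (0.84). Without the second duct suprabasal array these were 0.86, 0.86 and 0.84. Igfbp6 with Igfbp7 was 0.75 with that array and 0.39 without it. Igfbp2 had correlations between -0.13 and 0.50 with the 5 others. When that array was left out they ran from 0.06 (with Igfbp7) to 0.73 (with Igfbp6), and those of Igfbp7 ran from 0.06 to 0.62.

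Among all genes tested, the 3 with the profile most like each member, by Pearson correlation over the 10 arrays, were listed as a description. Igfbp2 was followed by Aldh18a1 (r = 0.975), an enzyme of proline synthesis, Cebpa (0.965), a transcription factor of keratinocyte differentiation, and Pard6g (0.964), a polarity protein. Cebpa averaged 1624 in myoepithelial cells, 34.8 in luminal cells, 525.0 in duct basal cells, 252.3 in duct suprabasal cells and 2068 in epidermis, the same order as Igfbp2. Igfbp5 was followed by Cdh13 (0.992), a cadherin anchored by a lipid, Ier5l (0.981) and Pdgfb (0.978), a growth factor that attracts pericytes. Igfbp4 was followed by Syne1 (0.983), Fig4 (0.970) and Pros1 (0.966), and Igfbp6 by Pcp4l1 (0.930), Fig4 (0.926) and S100a4 (0.916). Fig4 stood near 2 members, although its own means spanned only 339.0 to 488.3. Igfbp3 was followed by Tcap (0.980), which was dim with means of 27.1 to 55.1, Kctd17 (0.908) and Rbms1 (0.902). Igfbp7 was followed by Thy1 (0.974), one of the fibroblast markers, Fscn1 (0.963) and Nos3 (0.956), the nitric oxide synthase of endothelium. Without the second duct suprabasal array these last values were 0.930, 0.906 and 0.884.

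Other genes of the pathway were tested with limma in a linear model of all 10 arrays, and p-values were adjusted over all 9310 genes by the method of Benjamini and Hochberg. Of 53 genes in lists of ligands and receptors, of proteases that cut binding proteins with their inhibitors, and of signalling proteins, 45 were on the array and 39 were bright enough to test. Over the 5 populations together 29 of 39 differed (74.4%), against 65.8% of all genes. Between myoepithelial and luminal cells 10 were higher and 6 lower (41.0% of the 39, against 31.1% of all genes). Between duct basal and duct suprabasal cells 4 were higher and 7 lower (28.2% against 16.4%), and between myoepithelial and duct basal cells 6 were higher and 1 lower (17.9% against 24.3%). Between luminal and duct suprabasal cells 2 were higher and 6 lower (20.5% against 15.2%), and between duct basal cells and epidermis 18 were higher and 1 lower (48.7% against 34.0%). Of all genes that passed, 32.6% were higher in luminal than in duct suprabasal cells and 67.7% higher in duct basal cells than in epidermis, shares that were 42.8% and 56.7% after quantile normalization. Markers of fibroblasts, endothelial cells and pericytes were also higher in duct basal cells than in epidermis, and the part of these cells in the count was not tested. The count between the duct layers was 2 without the second duct basal array and 7 without either epidermis array. That between luminal and duct suprabasal cells was 3 without either luminal array. The count between duct basal cells and epidermis was 10 without the first duct basal array and 12 without either epidermis array. The count between myoepithelial and duct basal cells was 4 without the second myoepithelial array, and that between myoepithelial and luminal cells was 10 without the first luminal array.

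**Figure D5:**
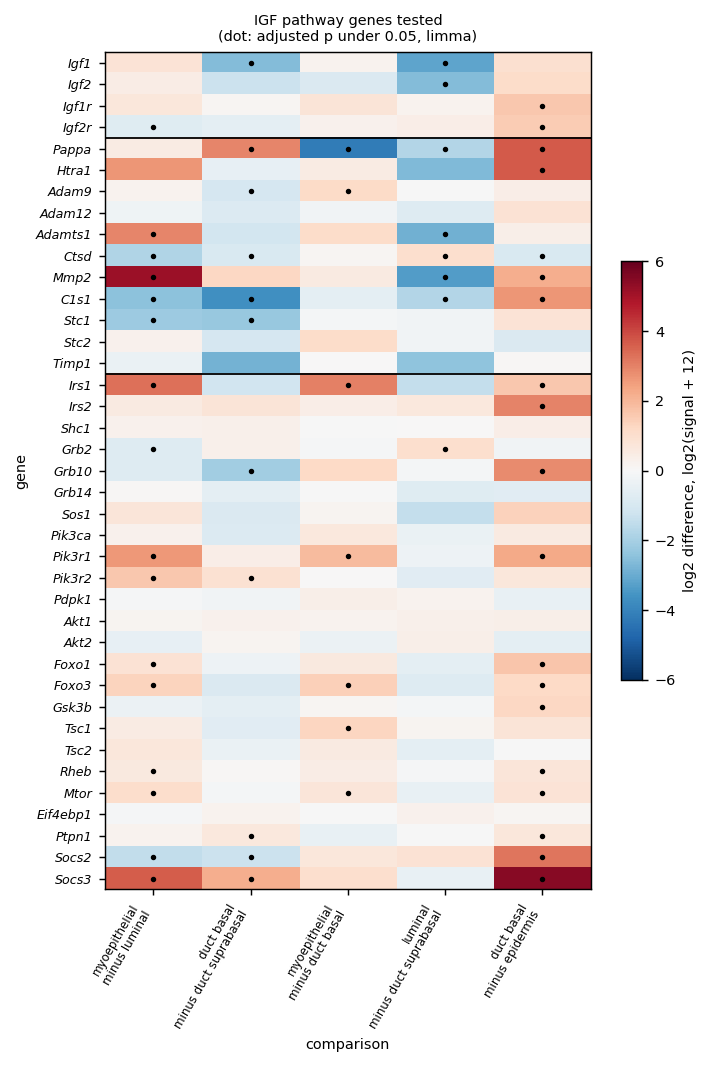
Log2 difference (colour, red where the first-named population was higher) of the 39 tested pathway genes, 1 line per gene, in the 5 comparisons, with a dot where limma's adjusted p was under 0.05. The column of duct basal cells minus epidermis holds 18 dots on higher genes and 1 on a lower gene.

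Both ligands had their highest mean in duct suprabasal cells. Igf1 had 22.9 and 41.7 in luminal cells and 56 and 50.8 in duct basal cells, against 240.6 and 597.0 in duct suprabasal cells. It fell by 3.18 log2 units in luminal relative to duct suprabasal cells (limma, adjusted p = 0.00376) and by 2.59 in duct basal relative to duct suprabasal cells (limma, adjusted p = 0.00741, or 0.0555 without the second duct basal array). Igf2 had 72.7 and 66.9 in luminal cells, against 238.7 and 956.8 in duct suprabasal cells, a log2 difference of -2.59 (limma, adjusted p = 0.0158, or 0.087 and 0.0873 without the first and the second luminal array). The fibroblast sum of the first duct suprabasal array (16694) was below those of duct basal cells (24197 and 20358), which were mostly Dcn (22039 and 18361). Of the 8 fibroblast markers, 5 had both duct basal arrays lower and 0 both higher. Col3a1, for example, had 712.2 and 753.3 in duct basal cells, against 5966 and 26876 in duct suprabasal cells. The part of fibroblasts was not tested. On the first duct suprabasal array Igf1 was above its duct basal values, and Igf2 lay between them. The endothelial sum of that array, 3004, was above that of every array outside the population, and its part was not tested. Of the receptors, Igf2r, which takes IGF2 to the lysosome, had 465.3 and 472.6 in duct basal cells and 143.3 and 170.3 in epidermis, a log2 difference of 1.52 (SE 0.24; limma, adjusted p = 0.00163). Igf1r also passed as higher in duct basal cells than in epidermis. Its signals were 178.4 and 167.2 in duct basal cells, against 44.3 and 50.7 in epidermis.

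Pappa, the pappalysin that cuts Igfbp4 and Igfbp5, was concentrated in duct basal cells. It had 17.1 and 28.7 in myoepithelial cells, 23.9 and 5.2 in luminal cells, 630.2 and 614.3 in duct basal cells, 55.4 and 94.2 in duct suprabasal cells and 42.7 and 31.5 in epidermis. The log2 difference was 2.91 between duct basal and duct suprabasal cells (limma, adjusted p = 0.00409), -4.20 between myoepithelial and duct basal cells (adjusted p = 0.000201) and 3.70 between duct basal cells and epidermis (adjusted p = 0.000347). Its substrates Igfbp4 and Igfbp5 were both higher in myoepithelial cells than in duct basal cells, the opposite side of that pair. Mmp2, a gelatinase, was 5.14 log2 units (SE 0.69) higher in myoepithelial than in luminal cells (limma, adjusted p = 0.000938). C1s1, a complement protease, was lower by 2.48 units there (adjusted p = 0.00278) and had a log2 difference of -3.68 between duct basal and duct suprabasal cells (adjusted p = 0.00129). Ctsd, a lysosomal protease, had 3534 and 2627 in myoepithelial cells, against 9898 and 11259 in luminal cells (log2 difference -1.79, adjusted p = 0.000511). Each of these calls held under all 19 alternatives and left-out arrays.

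In the signalling list, of which 24 genes were tested, 8 were higher and 2 lower in myoepithelial than in luminal cells (41.7%, against 31.1% of all genes). Irs1, the docking protein beneath the IGF and insulin receptors, had 853.7 and 1049 in myoepithelial cells, 66.0 and 109.9 in luminal cells and 118.6 and 94.7 in duct basal cells. Its log2 difference was 3.30 between myoepithelial and luminal cells (limma, adjusted p = 0.00115) and 3.02 between myoepithelial and duct basal cells (adjusted p = 0.00175). Pik3r1, a regulatory subunit of the kinase PI3K, was higher in myoepithelial cells in both pairs, by 2.59 (adjusted p = 0.000932) and 1.89 (adjusted p = 0.00443). Foxo3, a transcription factor that this kinase restrains, was higher by 1.33 (adjusted p = 0.00467) and 1.42 (adjusted p = 0.00416). Myoepithelial cells, with high Igfbp2 and Igfbp5, were thus also the population in which these transcripts were highest. Mtor passed between myoepithelial and luminal cells at 1.04 (adjusted p = 0.00702), but its 2 probe sets had opposite signs and their mean gave 0.02. In duct basal cells relative to epidermis 12 of the 24 were higher, where 34.0% of all genes passed in either direction. They included Socs2 at 3.21 (limma, adjusted p = 0.000111) and Socs3 at 5.48 (adjusted p = 0.000194), which dampen cytokine receptors, and Foxo1 at 1.66 (adjusted p = 0.002), of whose 4 probe sets 1 had the opposite sign.

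Outside the family, 9 further genes whose proteins carry an IGF binding domain were tested. Of these 2 were higher and 2 lower in myoepithelial than in luminal cells (44.4%, where 31.1% of all genes passed), and 3 were lower in duct basal than in duct suprabasal cells (33.3%, where 16.4% passed). In luminal relative to duct suprabasal cells 4 were lower (44.4%, where 15.2% passed), and in duct basal cells relative to epidermis 5 were higher (55.6%, where 34.0% passed). Ccn2, a matricellular protein of connective tissue growth, had 8210 and 17631 in myoepithelial cells, against 147.1 and 534.5 in luminal cells (log2 difference 5.35, limma, adjusted p = 0.00103), and its relative Ccn1 had a difference of 4.27 (adjusted p = 0.00546). Both were also higher in duct basal cells than in epidermis, by 6.98 (limma, adjusted p = 0.000186) and 6.29 (adjusted p = 0.000691). The part of fibroblasts and vessel cells in these differences was not tested. Esm1, a proteoglycan of endothelium, had at most 21.9 on any array of the other 4 populations, against 587.5 and 796.2 in duct suprabasal cells. Its log2 difference was -5.02 between duct basal and duct suprabasal cells (limma, adjusted p = 0.00089) and -4.65 between luminal and duct suprabasal cells (adjusted p = 0.00107). These 6 calls held under all 19 alternatives. Ccn1 and Ccn2 thus shared with the binding proteins the higher side in myoepithelial cells. The 2 that passed as lower there than in luminal cells were Crim1 (-1.60) and Ccn5 (-2.53). Esm1 shared with Igfbp3, Igfbp4, Igfbp6 and Igfbp7 its highest mean in duct suprabasal cells.

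The layer difference was compared between gland and duct, as myoepithelial minus luminal less duct basal minus duct suprabasal. Of the 39 pathway genes 7 had a larger value in the gland and 1 a smaller one (20.5%), against 16.0% of all genes by limma. The 7 were Igf1, Adamts1, Mmp2, Irs1, Pik3r1, Foxo3 and Mtor, and the 1 was Pappa. The count was 4 without the second myoepithelial or the second duct basal array and 5 without the first luminal array.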

How the data were processed

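Biotinylated cRNA, made from Trizol-extracted total RNA, was hybridised to 10 arrays, per the labels' protocols. The authors deposited signal intensities made with MAS5, per the submitters' processing notes, on a linear scale from 0.1 to 72213. The version of MAS5 is not given in the sources used here. With 2% of values trimmed at each end, the mean was 500 on every array, so a signal is relative to the rest of its array, and the median was 65.7 to 120.1. Levels of different probe sets are not comparable.

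A probe set was named where GEO's platform annotation gave it 1 symbol (20380 of 22690 probe sets). Another 691 had several symbols and 1606 were not listed. A gene was represented by its brightest probe set, as log2(signal + 12), and tested if its signal passed the array's 40th percentile on 2 or more arrays. One linear model of all 10 arrays was fitted with limma 3.58.1 in R 4.3.3 (5 residual degrees of freedom), with Benjamini-Hochberg adjusted p-values and a threshold of 0.05. The p-values measure the spread between arrays, whose number limits the precision.

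The members and lists were chosen with earlier results of these data known. All members were named. Pathway genes were named where they passed, differed at least 2-fold without overlap and exceeded the median signal of all genes, with up to 6 per list and direction, besides others that describe their list. Some listed genes were not analysed here. Alternatives were other pseudocounts (1 and 47), quantile normalization, other filters, the mean of all probe sets, the replicate number as a factor, fits of the compared arrays alone, and each array left out. A further alternative left out the first myoepithelial and the second duct suprabasal array together. The fitting steps were tested on simulated data.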

Additional observations from a re-analysis of the deposited data

Results flagged for a closer look

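In 4 binding proteins both myoepithelial arrays lay above both luminal arrays while both duct basal arrays lay below both duct suprabasal arrays. The layer difference in the gland exceeded that in the duct by 5.92 log2 units for Igfbp3, 6.37 for Igfbp4, 5.48 for Igfbp6 and 3.89 for Igfbp7. It also did so by 4.26 for Igfbp2 and 4.81 for Igfbp5, which did not have this opposite order. Without the second duct suprabasal array the duct difference was -1.63 for Igfbp3, -1.34 for Igfbp4, -0.62 for Igfbp6 and -1.34 for Igfbp7. The gap between gland and duct was not tested, since the members were chosen with these values known.

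For pathway genes the layer difference in the gland minus that in the duct was tested with limma. It was 3.38 for Igf1 (adjusted p = 0.0102), 4.01 for Adamts1 (0.00344), 3.91 for Mmp2 (0.0265), 4.44 for Irs1 (0.00328), 2.20 for Pik3r1 (0.018), 2.18 for Foxo3 (0.00535) and 1.17 for Mtor (0.0337). It was -2.44 for Pappa (0.0286). Among other genes with an IGF binding domain it was 4.38 for Ccn2 (0.0222) and 4.27 for Esm1 (0.00625). Igf1, Pappa and Esm1 passed between the duct layers but not between the gland layers (limma, adjusted p = 0.223, 0.461 and 0.306). Their gland differences were 0.80, 0.47 and -0.76 log2 units, and Esm1 was dim in the gland, at 1.2 to 18.2.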

How the results depend on the processing

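With 2 arrays in each population, the counts turned on single arrays more than on the scale or filter. Among all genes, leaving out 1 array gave 1439 to 3454 genes between myoepithelial and luminal cells (2897 with all arrays), 449 to 1982 between duct basal and duct suprabasal cells (1524), 1177 to 2833 between myoepithelial and duct basal cells (2260), 315 to 2046 between luminal and duct suprabasal cells (1413) and 1741 to 3747 between duct basal cells and epidermis (3168). Over the pathway genes, in the same order, the ranges were 10 to 17, 2 to 12, 4 to 8, 3 to 11 and 10 to 21, and 4 to 12 for the gap between gland and duct. A fit of the compared arrays alone gave 242 genes between the duct layers and 36 between luminal and duct suprabasal cells, with 2 and 0 pathway genes (limma, 12 of 39 at an unadjusted p under 0.05). The other alternatives stayed within 1.5 times of each count. Of 50 named calls of pathway genes and their relatives, 27 held under every alternative. Of the members' differences, 532 of 570 recomputed values moved by less than the spread between arrays. Many of the 570 could not move. A difference stays the same when an array outside its comparison is left out or the filter changes. The sign changed in 3: Igfbp3 between duct basal cells and epidermis (0.01 without the second epidermis array, -2.21 without the first), Igfbp5 between the duct layers (-1.26 without the first duct suprabasal array) and Igfbp7 between myoepithelial and duct basal cells (0.08 with the mean of all probe sets). With the mean of all probe sets the difference of Igfbp5 between myoepithelial and luminal cells was 2.66. Quantile normalization moved the median of all genes between duct basal cells and epidermis to 0.01 (0.24 without it), that between luminal and duct suprabasal cells to 0.08 (-0.06) and that between the duct layers to 0.09 (-0.02). The arrays share replicate numbers, but the deviations of same-numbered arrays correlated by only 0.03 to 0.36 over 10 pairs of populations, so the numbers were not taken as pairs. With the replicate block the pathway counts were 17, 14, 9, 12 and 19 in the order above and 10 for the gap between gland and duct, and no count over all genes moved by more than 1.5 times.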
